A study of Drosophila melanogaster with 2 samples.

Results

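The genes described here encode the factors that start and extend protein chains on the cytoplasmic ribosome. They were taken as every protein-coding gene of the Ensembl/FlyBase annotation whose symbol begins with eIF or eEF, which gave 52 of 13945 protein-coding genes on the major chromosomes. The readout was where CG2875 sat on the genome, measured by chromatin immunoprecipitation sequencing (ChIP-seq). Whole Drosophila melanogaster embryos of mixed sex, aged 0 to 14 h, came from 1 transgenic line in which green fluorescent protein was joined to the C-terminus of CG2875, and an antibody against the tag recovered the bound DNA. There was 1 group, with 2 biological replicates that shared a control alignment, and no untagged or mock immunoprecipitation was analysed here. Each gene was scored by its strongest promoter peak, a promoter peak being one with its summit at most 500 bp from a transcription start site (TSS) of the gene. A gene is called bound where the authors' IDR list (irreproducible discovery rate) has such a peak. That list held the 4278 strongest peaks of the 2 replicates joined, so a bound call does not mean that each replicate has the peak.

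Initiation factors assemble the small ribosomal subunit, the initiator tRNA and the mRNA cap into a complex that finds the start codon. The initiator tRNA arrives on eIF2 as a GTP-bound ternary complex, eIF2B recharges eIF2 with GTP, eIF3 is the large scaffold, and the eIF4 proteins bind the cap and unwind the leader. Elongation factors then deliver each aminoacyl-tRNA (eEF1) and move the ribosome along by 1 codon (eEF2). In flies many genes of the translation machinery have promoters with the DNA replication-related element (DRE), the site of the factor Dref, or a pyrimidine-rich initiator known as TCT.

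The sequences below show the DNA under the peaks of 5 bound members and the promoters of a pair of members with no peak, all from the RefSeq Release 6 genome (dm6), 5′ to 3′ on the strand of the gene. Capitals mark the DRE word TATCGATA, which reads the same on both strands. The eEF1gamma window (chr3R:29220107-29220201, plus strand), that of eIF1 (chr3L:3222961-3223061, plus strand), that of eIF3a (chr3R:4433904-4433994, minus strand) and that of eIF4A (chr2L:5981620-5981720, plus strand) reach up to 50 bases either side of the summit, and each holds a DRE. The window of eIF4EHP (chr3R:24109138-24109238, minus strand) was chosen because its peak was among the strongest of the members, and it holds none. The windows with a DRE are shown for that word, so its frequency here is not that of the bound members. Among those, 5 of 13 had a DRE within 150 bases of the summit. The eIF3h, eEF2 and eEF1alpha1 peaks were stronger than those of eIF3a and eIF4A, had no DRE there and are not shown. The promoters of eIF2gamma (chr3R:15263439-15263561, minus strand) and eIF2alpha (chrX:16446974-16447103, minus strand) carry the same word and had no peak in any list.
eEF1gamma: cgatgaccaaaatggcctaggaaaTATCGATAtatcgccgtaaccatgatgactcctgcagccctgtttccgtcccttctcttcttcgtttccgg
eIF1: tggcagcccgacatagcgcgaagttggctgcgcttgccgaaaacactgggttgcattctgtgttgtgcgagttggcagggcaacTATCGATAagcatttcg
eIF3a: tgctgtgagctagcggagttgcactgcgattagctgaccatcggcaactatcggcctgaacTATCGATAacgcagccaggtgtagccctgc
eIF4A: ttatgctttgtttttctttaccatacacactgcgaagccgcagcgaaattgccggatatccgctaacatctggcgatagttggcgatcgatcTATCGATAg
eIF4EHP: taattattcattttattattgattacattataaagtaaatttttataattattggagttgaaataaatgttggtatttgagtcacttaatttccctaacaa
eIF2gamma: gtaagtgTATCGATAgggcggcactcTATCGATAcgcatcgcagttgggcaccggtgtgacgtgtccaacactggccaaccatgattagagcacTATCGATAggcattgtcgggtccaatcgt
eIF2alpha: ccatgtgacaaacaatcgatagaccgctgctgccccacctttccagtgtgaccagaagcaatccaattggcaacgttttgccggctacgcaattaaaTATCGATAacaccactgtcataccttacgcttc

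In the IDR list, CG2875 peaks lay at the promoters of 4 of the 8 elongation factor genes and of scattered initiation factor genes. Most members had none in that list. Of the 52 members, 13 were bound (25.0%, exact binomial 95% interval 14.0 to 38.9%), beside 14.0% of all protein-coding genes and 13.9% of the 13893 others. The interval covers counting error over genes only, and its lower end lies at the share of all genes. With 2 libraries in 1 group and no read counts, no test over samples can be made. The 13 genes had 13 different peaks, so no pair of members shared one. In the equally long lists of the strongest 4278 peaks of each replicate, 13 members were bound in replicate 1, where 13.5% of all genes were, and 13 in replicate 2, where 14.5% were.

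**Figure D1:**
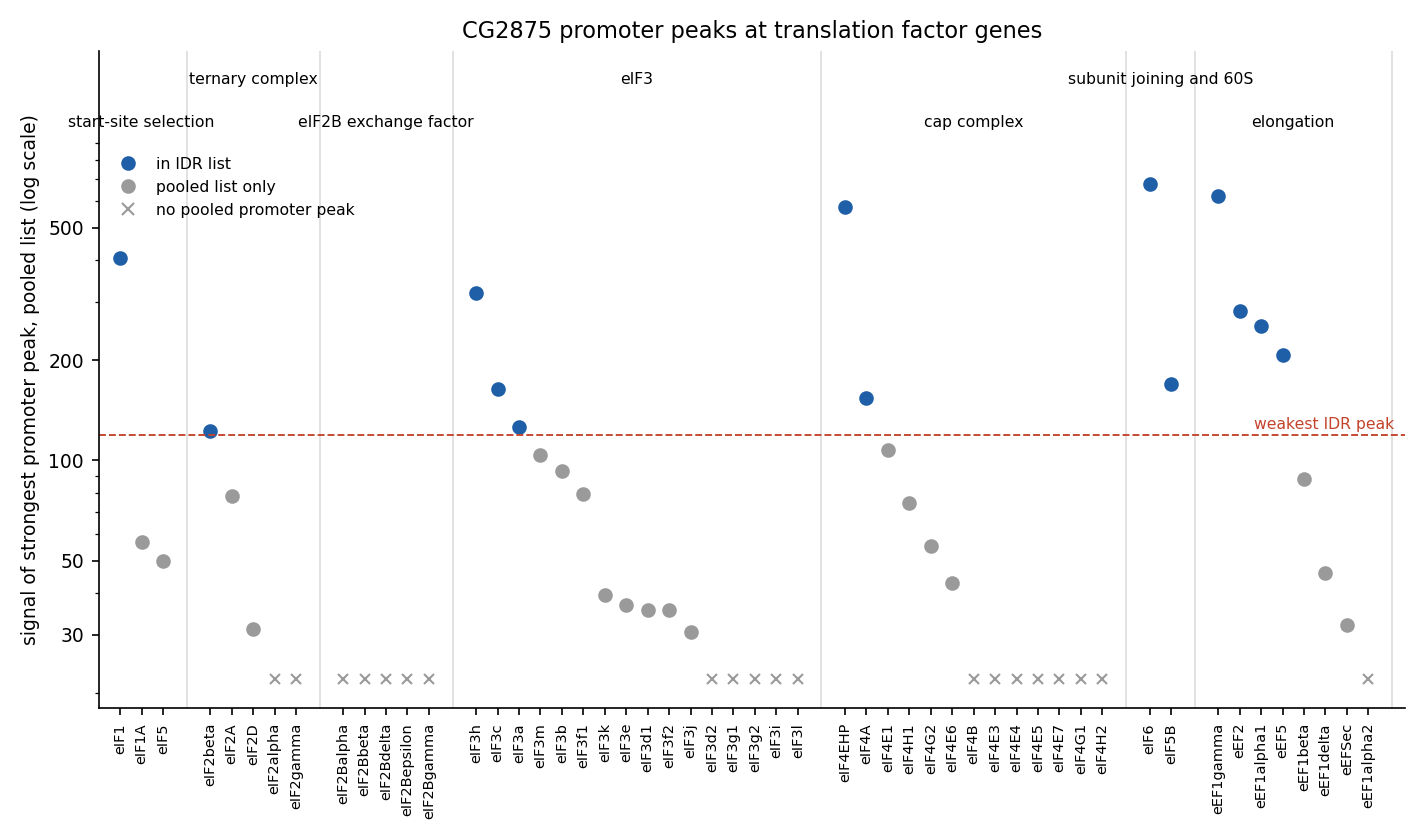
Signal value of the strongest promoter peak of each of the 52 members in the pooled list (log axis), grouped by role. Blue points are in the IDR list, grey points are in the pooled list only, crosses mark members with no pooled promoter peak, and the dashed line is the weakest IDR peak (119); the eIF2B genes are all crosses, and the points of eIF6, eEF1gamma and eIF4EHP stand highest.

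The signal value that came with each peak is an enrichment score, which ranks peaks of that list and has no stated unit. It ran from 119 to 2332 in the IDR list, and the members reached 676 at most. In the pooled list, a relaxed one that joins the replicates and includes background, 32 of 52 members had a promoter peak (61.5%, exact interval 47.0 to 74.7%) beside 45.3% of all genes. The median signal of those 32 was 90.6 (interquartile range 45.1 to 179), beside 77.8 (48.7 to 141) for the 6317 protein-coding genes with a pooled promoter peak. With members lacking a pooled peak placed lowest, the median over all 52 was 38.1, whereas fewer than 50% of all genes had any. The relaxed list of replicate 1 held 27 members, against 43.8% of all genes, and that of replicate 2 held 30, against 47.3%. At least 1 relaxed list gave a promoter peak for 36 members (69.2%, exact interval 54.9 to 81.3%), beside 57.0% of all genes, and 16 members had none in any.

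**Figure D2:**
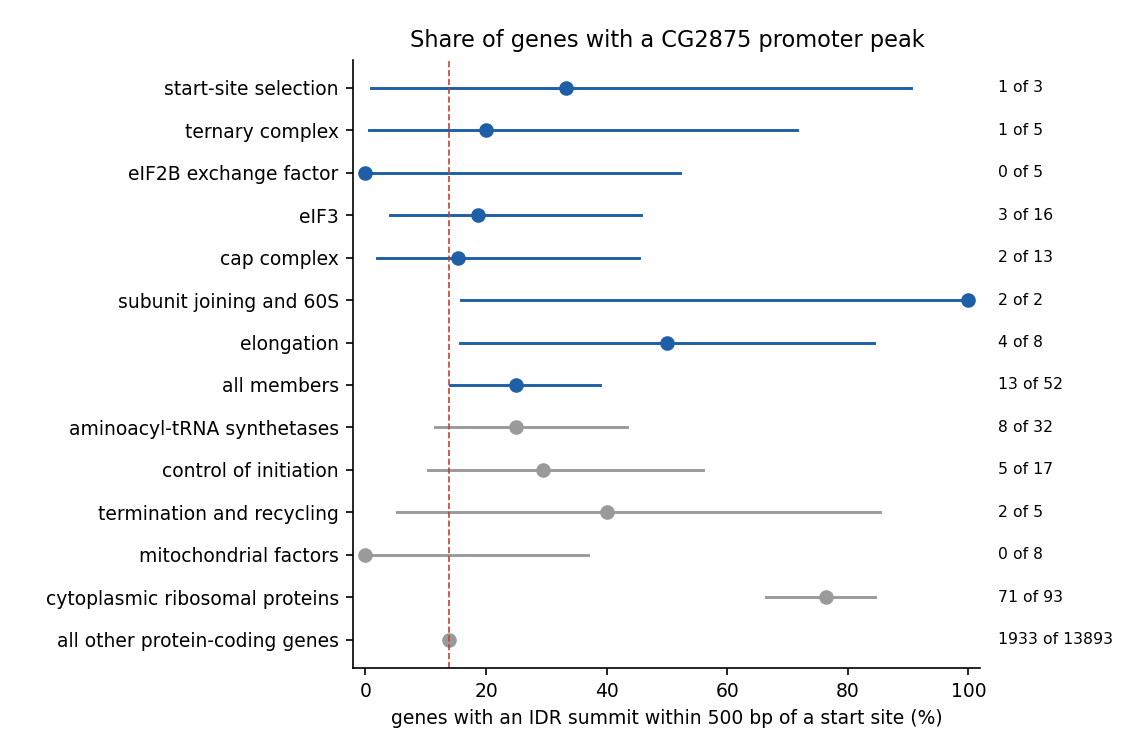
Share of bound genes, by role of the members and for other lists of translation genes, with exact binomial 95% intervals and the counts at the right. The dashed line is the share of all other protein-coding genes (13.9%); 4 of the 8 elongation members are bound, and the 93 cytoplasmic ribosomal protein genes at 76.3%.

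Of the 8 elongation factor genes 4 were bound (exact interval 15.7 to 84.3%), beside 14.0% of all protein-coding genes. The gene for eEF1gamma, a subunit of the complex that reloads eEF1alpha with GTP, led them with a pooled signal of 622, and the signals were 262 in replicate 1 and 355 in replicate 2. Its peak covered chromosome 3R positions 29220005 to 29220301 on dm6, and the summit lay 15 bp upstream of the TSS with no other annotated TSS within 1000 bp of that gene's starts. eEF2, the translocase, had 282 (87.0 and 203 in replicates 1 and 2) on 2L at 21682014 to 21682265, with its summit 13 bp upstream of a TSS and inside the 5′ UTR of a transcript that starts farther out. Replicate 2 ranked the eEF2 peak higher (629 of 30000) than replicate 1 did (2126 of 30000). eEF1alpha1, which carries aminoacyl-tRNA to the ribosome, had 254 (101 and 149) with a summit in its intron, 22 bp upstream of an internal TSS at 2R position 11892122. eEF5, the fly name of the factor also called eIF5A, which helps at difficult peptide bonds such as those between prolines, had 208 (77.6 and 134) with a summit in its 5′ UTR.

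The remaining elongation factor genes had weak peaks, or none in the pooled list. The eEF1beta gene, for the exchange subunit itself, had 88.3 in the pooled list (20.7 and 55.2 in replicates 1 and 2), and eEF1delta had 45.9 with no replicate 1 peak and 31.7 in replicate 2. The gene for eEFSec, which serves selenocysteine insertion, had a pooled signal of 31.9 near the bottom of the list and no peak in either replicate. The paralogs eEF1alpha1 and eEF1alpha2 stood apart, since eEF1alpha2 had no pooled or replicate 1 promoter peak and only 23.9 in replicate 2, at 436 bp inside the gene. Within the exchange complex eEF1gamma was therefore bound while eEF1beta and eEF1delta were not.

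**Figure D3:**
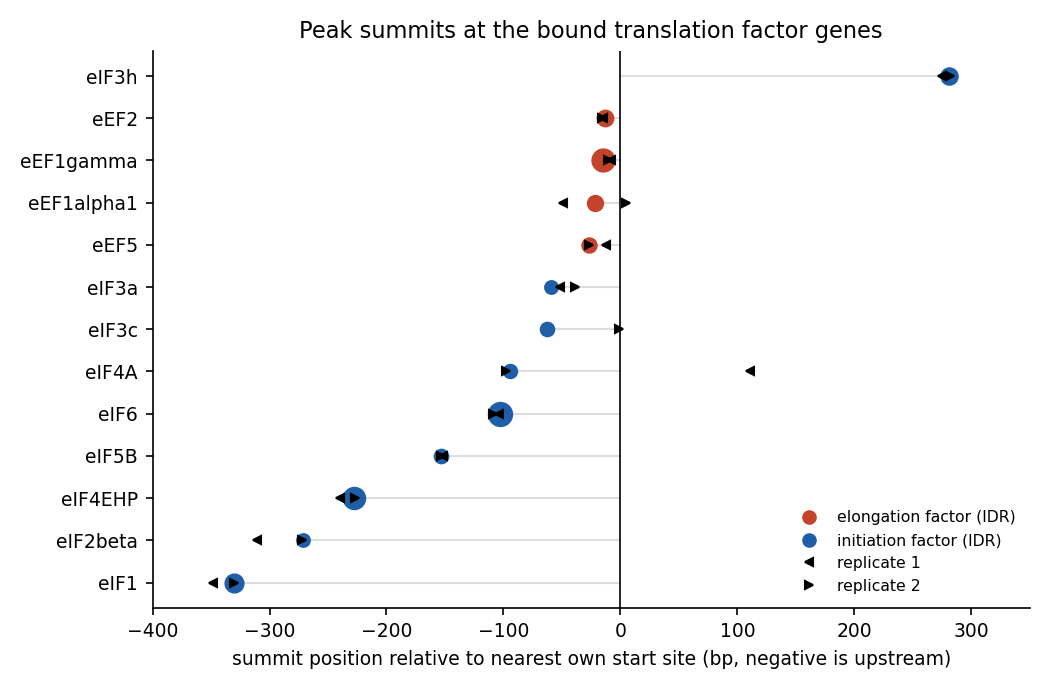
Position of the peak summit relative to the nearest TSS of the gene (bp, negative is upstream) for the 13 bound members. Circles are IDR summits with area rising with signal (red for elongation, blue for initiation factors) and triangles are the summits of each replicate; the 4 elongation factor summits lie between 27 and 13 bp upstream.

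All 4 bound elongation factor genes had summits within 50 bp of a TSS, and 0 of the 9 bound initiation factor genes did, by the IDR summits. Positions are to the nearest annotated start, of which eEF1alpha1 has 4 and eEF1gamma, eEF2 and eEF5 have 2 each. The bound genes eIF1, eIF2beta, eIF3a, eIF4EHP and eIF6 have 1, eIF3c, eIF3h and eIF5B have 2, and eIF4A has 3. A gene with more starts can more easily have a summit close to one. The distance of 50 bp was set after the positions were seen. Among all 1946 bound protein-coding genes 310 summits (15.9%) were that close, and among bound cytoplasmic ribosomal protein genes 60 of 71 (84.5%). In the single replicates the eEF1gamma summits lay 8 and 11 bp upstream, those of eEF2 15 and 16 bp and those of eEF5 12 and 27 bp. The replicates were farther apart at eEF1alpha1, with 49 bp upstream in replicate 1 and 5 bp downstream in replicate 2. Initiation factor genes also came within this distance in a single replicate, since the replicate 2 summits lay 1 bp upstream at eIF3c and 39 bp upstream at eIF3a. Over the 13 bound members the median position was -63 bp (quartiles -153 and -22), beside -134 bp (-233 and -43) for all bound genes. Upstream summits were found at 12 of the 13 (92.3%), beside 1599 of the 1946 bound protein-coding genes (82.2%).

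In the group of subunit joining and the large subunit, eIF5B and eIF6, both genes were bound. With 2 genes the exact interval runs from 15.8 to 100%, beside 14.0% of all protein-coding genes. eIF6, which binds the large ribosomal subunit and keeps it from joining too early, had the strongest peak of all members, at 676, and the signals were 347 in replicate 1 and 335 in replicate 2. This placed it at 108 among 13945 protein-coding genes by pooled promoter signal. The summit at 2R position 23850404 lay 103 bp upstream of eIF6, in an exon of the antisense gene asRNA:CR45928, whose TSS was closer (74 bp). The GTPase gene eIF5B had 170 (81.9 and 96.3) on 3L at 3460544 to 3460967, 153 bp upstream of a TSS and in its own 5′ UTR. Its body held 4 further IDR peaks, with signals from 143 to 177 and 10748 to 27732 bp from the nearest eIF5B start. The span of eIF4EHP held 1 more IDR peak (122), at the promoter of Syx1A, a gene nested there whose start was 194 bp away.

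Among genes for start-codon selection, eIF1 was bound and eIF1A and eIF5 were not. The eIF1 peak had a signal of 405 (184 and 228) at 3L positions 3222889 to 3223138. Its summit was 330 bp upstream of eIF1 and 51 bp from the start of RpL28, a ribosomal protein gene that lies head to head with it, so the peak cannot be assigned to eIF1 alone. The eIF1A gene had 57.0 in the pooled list (21.3 and 38.4), and that for eIF5, the factor that makes eIF2 hydrolyse its GTP, had 49.8 (23.4 and 27.6). These values lie below the weakest IDR peak in the pooled list.

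The exchange factor of eIF2 had no peak at any of its genes, and eIF2 itself had one at a single subunit gene in the IDR list. All 5 eIF2B subunit genes (eIF2Balpha, eIF2Bbeta, eIF2Bgamma, eIF2Bdelta and eIF2Bepsilon) lacked a promoter peak in every list, which puts 0 of 5 in the IDR list (exact upper bound 52.2%). Among all protein-coding genes 6000 of 13945 likewise had none, so an empty promoter is common. The eIF2alpha gene, whose product is the target of the stress kinases, and the eIF2gamma gene, which encodes the GTP-binding subunit, had none either. The subunit gene eIF2beta was bound with 122 (64.3 and 59.8), the weakest of the 13, at 3L positions 12526790 to 12527213 and 271 bp upstream. It ranked 3363 in replicate 1 and 5438 in replicate 2, outside the strongest 4278 of the latter. eIF2A had 78.4 (45.0 and 32.5) and eIF2D 31.1 (28.9 and 35.6), neither in the IDR list.

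A strong peak stood close to 1 of these empty genes. The start of eIF2Bbeta lay 691 bp from an IDR summit of signal 1955, ranked 5, whose nearest start was that of the neighbouring gene Ugalt at 28 bp. Of the 39 members that were not bound, it was the only one with an IDR summit within 1000 bp. The next were eEF1delta at 1193 bp, from a peak nearest to ova, and eIF2Bgamma at 1253 bp, from a peak nearest to Vha36-1. At the far end the gene for eIF4B, on 3L at 27842669 to 27858271, was 4762856 bp from the nearest IDR summit on its arm, one near RpL10.

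The scaffold factor eIF3 has 16 genes in the annotation, counting 3 paralogs. Of these 16, 3 were bound (18.8%, exact interval 4.05 to 45.6%), beside 14.0% of all protein-coding genes. eIF3h led with 319 (165 and 145) on 2L at 5052388 to 5052571. Its summit was intronic and 281 bp downstream of the nearest TSS, the only bound member with a downstream summit, and both replicates placed it there (275 and 282 bp). eIF3c and eIF3a encode core subunits. eIF3c had 164 on 2R at 17665403 to 17665826, with 104 in replicate 2 and no promoter peak in replicate 1. eIF3a had 126 (76.8 and 51.5) at 3R positions 4433742 to 4434165, ranked 2559 in replicate 1 and 6806 in replicate 2, and its summit lay 11 bp from the start of CG1074 and 59 bp from that of eIF3a.

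Another 8 eIF3 genes had a pooled peak below the IDR list. eIF3m (104), eIF3b (92.9) and eIF3f1 (79.5) were the highest of these. Signals in the replicates differed for the last pair, with 24.2 and 83.2 for eIF3b and 52.0 and 19.8 for eIF3f1. eIF3k (39.4), eIF3e (36.7), eIF3d1 (35.6), eIF3f2 (35.6) and eIF3j (30.6) were close to the floor of the pooled list, 30.5. The genes eIF3i and eIF3l had a peak in a single replicate (37.0 in replicate 1 and 28.5 in replicate 2), and eIF3g1, eIF3g2 and eIF3d2 had none. None of the copies eIF3d2, eIF3f2 and eIF3g2 was bound, and neither were their partners eIF3d1, eIF3f1 and eIF3g1.

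At the cap, 2 of 13 genes were bound (15.4%, exact interval 1.92 to 45.4%), near the 14.0% of all protein-coding genes. The eIF4EHP gene encodes a cap-binding protein that competes with eIF4E and represses chosen mRNAs, and it had the third highest signal of the members, 578 (287 and 289), at 3R positions 24109004 to 24109376. Its summit lay 228 bp upstream and 148 bp from the start of CG18428. eIF4A, the helicase that unwinds the mRNA leader, had 154 (70.8 and 96.7) on 2L at 5981458 to 5981881. The pooled summit was 94 bp upstream, as was that of replicate 2 within 4 bp, while the replicate 1 summit was 111 bp downstream.

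The cap-binding protein eIF4E is made from several genes, and eIF4E1 lay just below the IDR list. It had 108 in the pooled list and 70.0 in replicate 2, just above the weakest of the strongest 4278 peaks there (69.4), and no promoter peak in replicate 1. The other genes of this type had none (eIF4E3, eIF4E4, eIF4E5 and eIF4E7) or a weak one (eIF4E6, 42.9 with 46.6 in replicate 1 and none in replicate 2). Of the 7 eIF4E-type genes 1, eIF4EHP, was bound (14.3%, exact interval 0.361 to 57.9%), near the 14.0% of all protein-coding genes. Of the scaffold genes, eIF4G1 on chromosome 4 had only a replicate 1 peak of 28.4, and eIF4G2, a form used in the testis, had 55.4 (30.4 and 46.4). eIF4H1 had 74.3 (23.8 and 64.3), and eIF4H2 and eIF4B, the other helper of the helicase, had no peak in any list.

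**Figure D4:**
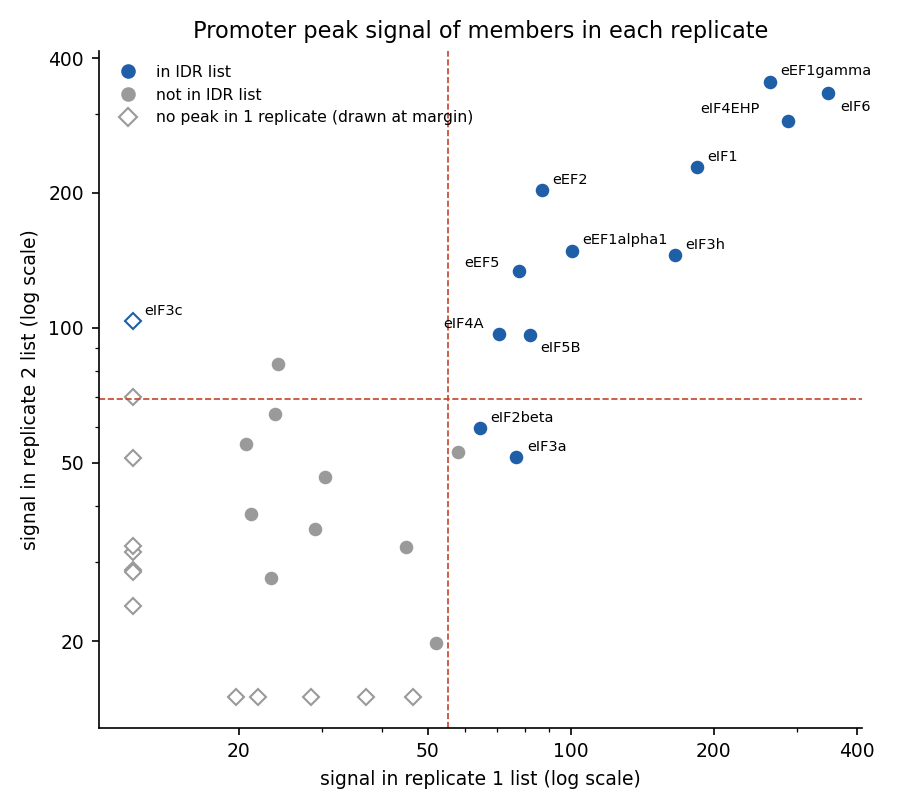
Signal of the strongest promoter peak of the members in the replicate 1 list (x axis) and the replicate 2 list (y axis), both on log axes. Blue is bound and grey is not, open diamonds at the margins have a peak in a single replicate, and dashed lines mark the weakest of the 4278 strongest peaks of each replicate; 10 bound members lie beyond both lines.

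Strength in the single replicates partly follows from the bound call, which takes the strongest peaks of the replicates joined. Of the 13 bound members, 10 were among the strongest 4278 peaks of both replicates. Of all 13945 protein-coding genes 1493 were in both of these lists, whether bound or not. How many of the 1946 bound genes were in both lists was not counted. The bound members eIF2beta and eIF3a were among these strongest peaks in replicate 1 only. The same held in replicate 2 only for eIF3c, which had no promoter peak in replicate 1. Conversely 3 members outside the IDR list reached that level in a single replicate, eIF3m in replicate 1 (57.8) and eIF3b and eIF4E1 in replicate 2. Just inside the IDR list were eIF2beta (122) and eIF3a (126), and just outside were eIF4E1 (108) and eIF3m (104). Among the 12 bound members with a promoter peak in both replicates, 6 ranked higher in replicate 2, as did 50.3% of the 1921 such genes overall. Ranks were better in replicate 2 for eEF1alpha1, eEF1gamma, eEF2 and eEF5, each of the bound elongation factor genes.

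Another gene started within 1000 bp at 10 of the 13 bound members, beside 1337 of the 1946 bound protein-coding genes. A TSS of another gene lay within 1000 bp for 29 members, of which 10 were bound (34.5%), beside 19.9% of all protein-coding genes with such a neighbour. Of the 23 members with none, 3 were bound (13.0%), beside 8.44% of all such genes. Those 3 were eEF1gamma, eEF2 and eIF2beta, whose peaks thus have no other annotated start to belong to at that distance. For 9 of the 13 the nearest TSS to the summit was their own. The exceptions were eIF1 (RpL28), eIF3a (CG1074), eIF4EHP (CG18428) and eIF6 (asRNA:CR45928). With each summit given to its nearest TSS only, 17.3% of the members and 10.8% of all protein-coding genes were bound. Without that limit these shares were 25.0% and 14.0%, so both fell. Which of a pair of neighbours a peak serves was not tested. No member had a start whose surrounding 36 bp occurred again on these chromosomes.

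The DRE was frequent in the promoters of the members, whether bound or not. Words were searched on both strands from 250 bases before to 50 bases after the canonical start. TATCGATA occurred in 14 of 52 members (26.9%, exact interval 15.6 to 41.0%), in 8.94% of all 13945 promoters and in 30.1% of the 93 ribosomal protein promoters. It was in 5 of 13 bound members (38.5%, exact interval 13.9 to 68.4%) and 9 of 39 others (23.1%, exact interval 11.1 to 39.3%). Among all 1946 bound protein-coding genes 11.2% had it. Of the 14 members with a DRE 5 were bound (35.7%, exact interval 12.8 to 64.9%), beside 17.5% of all genes with a DRE.

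Under the peaks themselves, within 150 bases of the summit, 5 of 13 bound members had a DRE (38.5%, exact interval 13.9 to 68.4%). The share over all 1777 promoter summits was 6.13%. The centre of the word lay 22 bp from the summit at eEF1gamma, 24 bp at eIF3a, 38 bp at eIF1, 46 bp at eIF4A and 95 bp at eIF6. The eIF1 copy lies at -292 bp from the eIF1 start, beyond its promoter window. The eIF3c promoter has one 153 bp from its summit, just outside that window. At eIF2gamma, by contrast, 3 copies lie 6, 74 and 93 bp upstream of a start with no peak, and at eIF2alpha 1 copy lies 10 bp upstream. The other members with a DRE and no IDR peak were eEF1delta, eIF1A, eIF2Bbeta, eIF3f1, eIF3l, eIF4B and eIF4E6.

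**Figure D5:**
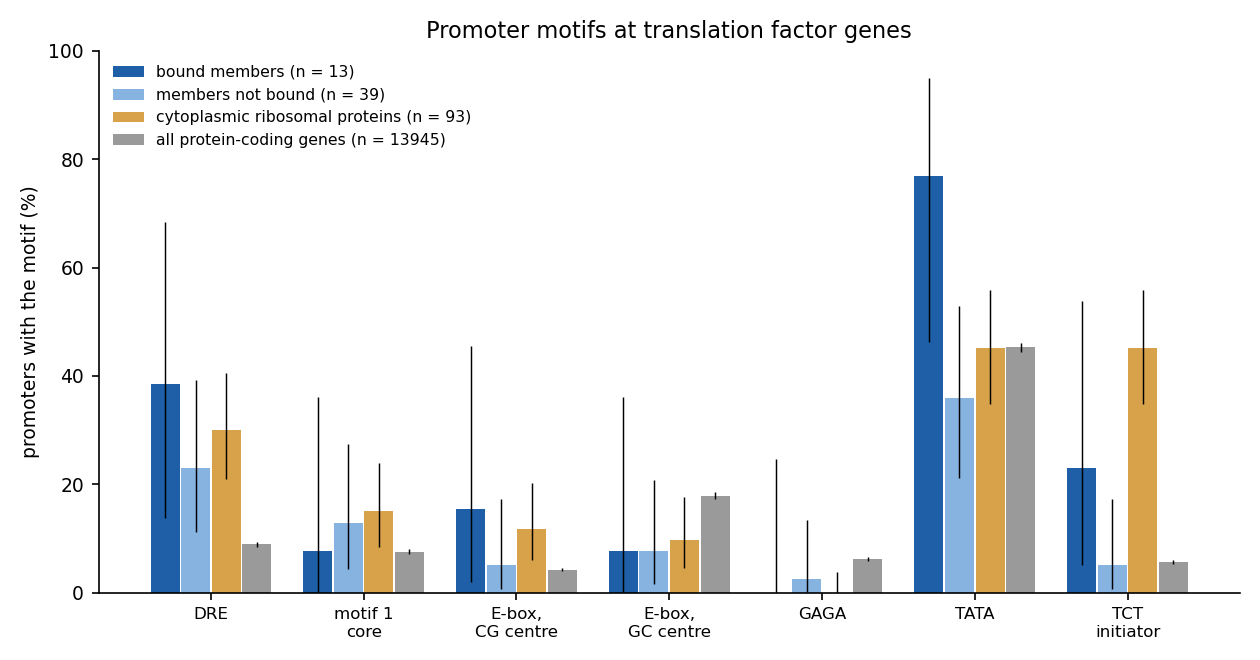
Share of promoters with each motif (bars, with exact binomial 95% intervals) in bound members, members not bound, cytoplasmic ribosomal protein genes and all protein-coding genes. The E-boxes with CG and GC at the centre are CACGTG and CAGCTG; the DRE bars of both sets of members stand above the 8.94% of all genes, while the intervals of the 13 bound members are wide.

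The TCT initiator was searched as CTTT on the strand of the gene, starting within 5 bases of the canonical start. It was present in 5 of 52 members (9.62%, exact interval 3.20 to 21.0%), beside 5.72% of all genes and 45.2% of ribosomal protein genes. Of the 5 members 3 were bound, beside 139 of the 798 protein-coding genes with the word. The bound members with it were eEF2, eEF5 and eIF4A, and the others were eIF3f1 and eIF3i. The starts of eEF2 (chr2L:21682107-21682136, minus strand) and eIF4A (chr2L:5981744-5981773, plus strand) are shown with the CTTT in capitals, whose first base is 4 bases downstream of the annotated start in both.
eEF2: ctatggtcgctgcagcgcctcgctCTTTcc
eIF4A: taaaacttttgcaagatggagcctCTTTtg

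Counts of the other words follow. GGTCACAC, the core of motif 1, which the factor M1BP binds, was in 6 members (11.5%, and 7.54% of all genes). CACGTG, the E-box bound by Myc, was in 4 (7.69%, and 4.26% of all genes), among them eEF2 and eIF4A. CAGCTG was in 4 (7.69%, and 17.9% of all genes), and GAGAGAG in 1 (1.92%, and 6.20% of all genes). TATAAA was in 24 members (46.2%, and 45.3% of all genes), in 10 of 13 bound ones (76.9%) and 14 of 39 others (35.9%). Within 150 bases of the summit it was in 6 of 13, beside 45.1% of all promoter summits. A match is a description of the letters and not of a bound factor.

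Other genes of translation bracketed these values. The cytoplasmic ribosomal proteins, taken by symbol, had 71 of 93 genes bound (76.3%, exact interval 66.4 to 84.5%) with a median IDR signal of 302, beside 254 for the 13 bound members and 205 for all 1946 bound genes. The aminoacyl-tRNA synthetases, which load tRNAs with amino acids, had 8 of 32 bound (25.0%, exact interval 11.5 to 43.4%) with a median of 151, led by IleRS (351) and SerRS (290). Genes that control initiation had 5 of 17 bound (29.4%, exact interval 10.3 to 56.0%), namely larp (871), the eIF2alpha kinase gene Gcn2 (327), Thor, whose product sequesters eIF4E, the kinase gene Lk6 and the TOR activator gene Rheb. Termination and recycling had 2 of 5, the release factor gene eRF3 (146) and the ribosome rescue gene pelo (122). The mitochondrial translation factors had 0 of 8 (exact upper bound 36.9%), and the pair of enzymes that modify eEF5 with hypusine, nero and Dhps, had 0 of 2. The intervals of the initiation, synthetase and member counts overlap widely, and no difference between these lists was tested.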

How the data were processed

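The authors deposited peak lists for the dm6 and dm3 assemblies, per the file records. The dm6 lists were used: 1 relaxed list per replicate and 1 for both replicates together (30000 peaks each, so their length carries no information), and the IDR list (4278 peaks, identical to the strongest 4278 of the pooled list). The signal value and the -log10 q value of each peak are the authors', deposited with the lists, and only the signal was used. Each list was derived with a control alignment that both replicates share, per the file records. Fragments were 200 to 800 bp, per the labels. The sources used here give no aligner, peak caller, version or IDR threshold, and the depth in reads is unknown.

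Start sites came from Ensembl release 115 (BDGP6, dm6 coordinates), without transposable elements: 18164 genes and 23581 distinct positions on X, 2L, 2R, 3L, 3R and 4. Coordinates are 1-based. A gene's score was its strongest peak with a summit within 500 bp of any TSS. Sequences and motifs came from the RefSeq Release 6 genome. The members and lists were chosen with earlier results of these data known. All members are named, and the 2 strongest bound genes of other lists, with the further bound genes of the initiation list named after their values were seen. The synonyms ico and CG8005 matched genes already listed (mEFG1 and Dhps), and Tor matched 2 genes and was left out. Shares have exact binomial 95% intervals (counting error only), and no test was made. The scoring was checked on simulated data with planted summits. Alternatives were each replicate alone, other windows, a stricter list and other assignments. Figures were drawn with matplotlib 3.10.9, and values were computed with scipy 1.17.1, pandas 2.3.3 and numpy 2.4.6 under Python 3.11.15.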

Additional observations from a re-analysis of the deposited data

How the results depend on the processing

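The count of bound members changed with the assignment of summits to genes, with neighbouring starts and with peak strength. It was 13 in each replicate alone (12 of the 13 again in replicate 1, 11 in replicate 2). When each summit was given to its nearest TSS only, it was 9 (17.3%, beside 10.8% of all genes). With windows of 250 and 1000 bp it was 10 and 14 (19.2% and 26.9%, beside 10.7% and 17.0% of all genes). It was 8 in the stronger 50% of the IDR peaks (15.4%, beside 7.80% of all genes), and 8 where the peak interval had to touch a TSS (15.4%, beside 8.51%). Among the 23 members with no neighbouring TSS it was 3. The share of members was above that of all genes in each of these 8 alternatives. They reuse the same genes and mostly the same peaks, so they are not independent of the main count.

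The median signal of members was 254 in the IDR list (205 for other genes), and 57.5 and 52.0 in replicates 2 and 1, beside 47.2 and 36.5. With a 250 bp window it was 78.4, beside 77.7 for other genes. The median summit position of members was -18.5 bp in the pooled list, beside -89 bp for other genes. It was -15.0 bp in replicate 1 and -2.50 bp in replicate 2, beside -98 and -76 bp for other genes. These relaxed lists include background, and the median of other genes in the IDR list was -135 bp. Under the summits CAGCTG and GAGAGAG were each in 0% of 13 members (19.4% and 11.0% of all promoter summits). No paired analysis was possible because the series has 1 group. Whole embryos were used, so the cells that held a peak cannot be told apart.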
